A study of Rattus norvegicus with 4 samples.

Results

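Activins, their binding proteins and the TGF-beta ligands were followed in cultured peritubular myoid cells of the rat testis through 10 genes. The genes were taken as a fixed list: the activin subunit genes Inhba and Inhbb, the follistatin family genes Fst, Fstl3 and Fstl1, the ligand genes Tgfb1, Tgfb2 and Tgfb3, and the receptor genes Acvr2a and Tgfbr2. All 10 were found by the gene name in the scanner files, ignoring case, among 35658 distinct names on the array, and none needed an older symbol. They had 14 probes of the 41012 that were not controls, and 23 spots. Of those 14 probes, 13 passed the detection filter and entered the test, against 63.1% of all probes.

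Per the labels, peritubular cells were isolated from the testes of rats aged 40 days and cultured for 4 days with defined growth factors. The 2 arrays of the testosterone group came from cells given 1e-07 M testosterone in pulses, and the 2 arrays of the control group from cells called control, for which no vehicle is described. Strain, number of animals and pooling are not given in the sources used here, and the replicates are not said to be separate cultures. A p-value here therefore reflects array-to-array spread alone, and that spread could be technical. A level below is a log2 processed signal from which the array's own 75th percentile was subtracted, so that 0 lies at that percentile. Levels of different probes are not set against each other, and probes of 1 gene are numbered from the brightest down.

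Peritubular myoid cells wrap the seminiferous tubule, contract, carry the androgen receptor and secrete factors that act on the Sertoli cells inside, activin A among them. Activins are dimers of inhibin beta subunits; they bind a type II receptor such as that encoded by Acvr2a, which recruits a type I receptor and leads to phosphorylation of Smad2 and Smad3. Follistatin, encoded by Fst, and its relative encoded by Fstl3 bind activins and keep them from the receptor. The TGF-beta ligands are secreted in a latent form, are released in the matrix and signal to the same Smads through the receptor encoded by Tgfbr2.

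Each array had 63.5% to 68.2% of its non-control spots well above background, and precision is limited by having 4 arrays in all, which came from 1 scan. Control replicate 1 was the array whose file header asked for evaluation. On it 79 spots that were well above background on the other arrays read at least 16-fold below their median there, 77 of them in columns 57 to 85 of the array, against 1 to 7 such spots on each other array. No such spot lay within 4 rows and columns of any member spot printed once. Dimming of less than 16-fold was not looked for. As a check of the label, 6 of the 9 smooth muscle and myoid markers passed the detection filter (Actg2, Des, Tagln, Myl9, Smtn and Lmod1). Of these, 5 were well above background on all 4 arrays and Lmod1 on 3. Cnn1 was well above background on 0 arrays, and Acta2 and Myh11 matched no probe by name. Markers of other cells of the testis were also well above background on all arrays: 5 of 6 Leydig cell genes, 6 of 7 macrophage genes, 4 of 8 Sertoli cell genes and 4 of 5 fibroblast genes. In such bulk RNA, fewer cells of a type and less RNA per cell cannot be told apart.

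Because the cells were exposed to an androgen, the 250 bases before the RefSeq gene start (build GRCr8) were read for 9 of the 10 genes, all but Fst, and searched on both strands for the hexamer AGAACA, the half-site of the androgen response element. It was present in 2 of the 9, Fstl3 and Tgfb1, and in 17.5% of all 33469 such windows. The same windows were searched for the GC box GGGCGG on both strands, found in 4 of the 9 and in 30.5% of all windows, and for the TATA box TATAAA on the gene's strand, found only in Inhba of the 9 and in 8.06% of all. The cyclic AMP response element TGACGTCA, the AP-1 site TGANTCA and the Smad-binding palindrome GTCTAGAC were in none of the 9 and in 1.59%, 6.34% and 0.173% of all windows. The windows of Inhba (chr17:53804509-53804758, minus strand), Fstl3 (chr7:10579845-10580094, minus strand) and Tgfb1 (chr1:90324062-90324311, plus strand) are shown, as those with a half-site or a TATA box. They run 5′ to 3′ and end at the base before the gene start, with every match counted above in capitals. A match is a string of letters and not a measured site.
Inhba: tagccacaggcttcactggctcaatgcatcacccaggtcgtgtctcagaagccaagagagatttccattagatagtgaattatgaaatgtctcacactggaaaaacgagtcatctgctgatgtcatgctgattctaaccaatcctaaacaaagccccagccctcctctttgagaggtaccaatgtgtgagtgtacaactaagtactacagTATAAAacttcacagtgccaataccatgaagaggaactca
Fstl3: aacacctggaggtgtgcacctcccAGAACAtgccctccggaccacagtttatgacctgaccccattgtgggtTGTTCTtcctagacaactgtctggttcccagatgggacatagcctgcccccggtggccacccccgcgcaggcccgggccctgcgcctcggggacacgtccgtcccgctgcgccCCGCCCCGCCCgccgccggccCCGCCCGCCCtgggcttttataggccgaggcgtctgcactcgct
Tgfb1: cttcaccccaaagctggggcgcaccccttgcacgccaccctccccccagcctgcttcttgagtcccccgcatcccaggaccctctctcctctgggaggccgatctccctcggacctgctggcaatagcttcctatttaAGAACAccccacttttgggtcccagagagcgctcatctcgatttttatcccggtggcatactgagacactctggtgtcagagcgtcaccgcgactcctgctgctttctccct
The TATA box of Inhba began 40 bases before the gene start, the half-sites of Fstl3 began 226 and 178 bases before it, and that of Tgfb1 began 112 bases before it.

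None of the 10 genes differed between testosterone and control beyond the spread between arrays. In limma's test over 25881 probes, 0 of the 13 member probes passed an adjusted p of 0.05, and 0 (0%) of all tested probes were higher and 0 (0%) lower, the smallest adjusted p being 1.00. No member probe had an unadjusted p under 0.05, against 208 (0.804%) of all tested probes. Member differences ran from -0.12 to 0.27 on the log2 scale with a median of 0.04, beside a median of -0.01 over all tested probes. By the brightest probe of each gene, the sign was positive for 7 genes and negative for 3; it was positive for 4 when arrays were instead centred on their medians. The intervals were wide: the half-width of the 95% interval ran from 0.51 to 2.01 among member probes, with a median of 0.68 beside 0.64 over all tested probes. For 2 arrays in each group the smallest 2-sided p of an exact permutation test is 0.333, and that test was not run.

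**Figure D1:**
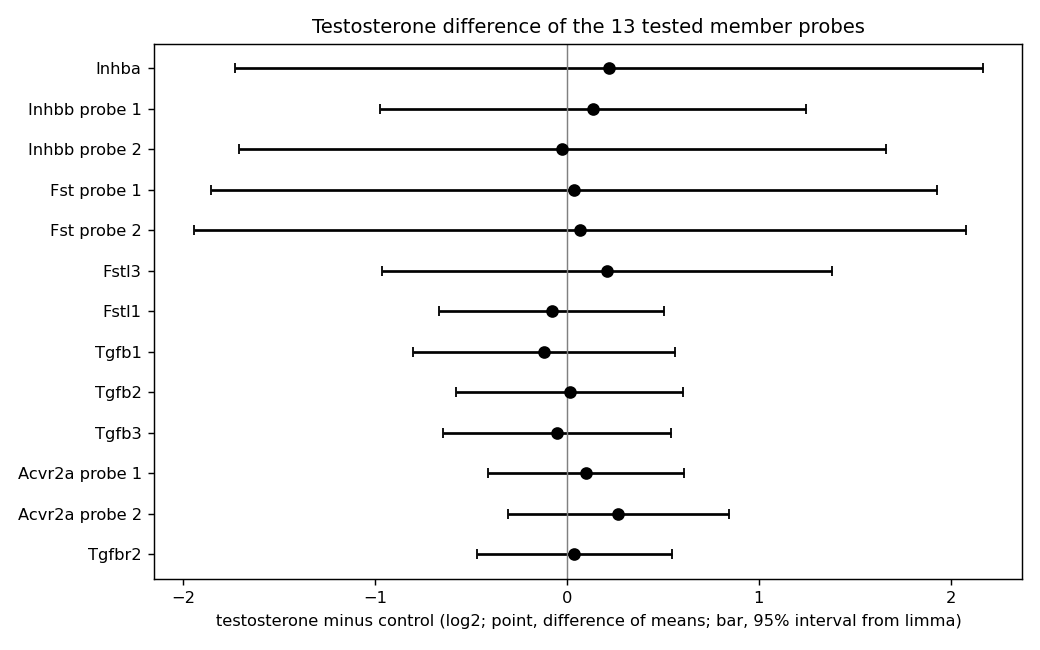
Testosterone minus control for the 13 tested member probes, on the log2 scale, as the difference of group means (point) with limma's 95% interval (bar), n = 2 arrays per group. Each interval includes 0, and those of Inhba, Inhbb probe 2 and both Fst probes are the widest.

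Inhba encodes the beta A subunit, whose homodimer is activin A. Its probe (chromosome 17, 57244604 to 57244663, rn4) read -2.77 and -1.30 with testosterone and -3.01 and -1.49 in control, replicate 1 before replicate 2. Both replicate 2 arrays were high and both replicate 1 arrays low, and the groups overlapped. Group means were -2.03 ± 1.04 and -2.25 ± 1.08 (SD, n = 2), a difference of 0.22 with a 95% interval from -1.73 to 2.17 (adjusted p = 1.00 in limma). On a linear scale that is 1.17-fold, with bounds of 0.302 and 4.49.

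Inhbb encodes the beta B subunit of activin B, and had 3 probes that did not run alike. Probe 1 (chromosome 13, 32173603 to 32176234, rn4, a span of 2632 bases, where the other member probes cover 60) read 0.482 and 1.496 with testosterone and 0.611 and 1.096 in control. Its difference was 0.14 (-0.98 to 1.25). Here too the replicate 2 arrays were the higher ones, with testosterone replicate 2 the highest of the 4. Probe 2 (32171058 to 32171117) read -4.51 and -2.69 with testosterone but -3.62 and -3.53 in control. The control arrays thus lay close together between the testosterone arrays, and the difference was -0.02 (-1.71 to 1.66). Probe 3 (32173421 to 32173480) was well above background on control replicate 2 alone, at -5.56, and was not tested; the other arrays read -7.61, -7.03 and -7.38.

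Follistatin, from Fst, was measured by 2 neighbouring probes on chromosome 2 (46543227 to 46543286 and 46543299 to 46543358, rn4), and both gave the same picture. Probe 1 read -0.98 and 0.41 with testosterone and -1.08 and 0.43 in control. Probe 2 read -1.51 and -0.03 with testosterone and -1.65 and -0.02 in control. Same-numbered arrays of the groups thus lay close together, while the replicate numbers lay 1.39 to 1.63 apart, and the groups overlapped. The differences between groups were 0.04 (-1.85 to 1.93) and 0.07 (-1.94 to 2.08), with adjusted p = 1.00 in limma for both. Both probes lay in columns 57 to 85, where control replicate 1 held its dark spots. No such spot lay within 4 rows and columns of them, and a fall of less than 16-fold would not have been counted.

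Fstl3, a second activin-binding protein of the follistatin family, read -3.37 and -2.31 with testosterone and -3.33 and -2.76 in control (chromosome 7, 11437928 to 11437987, rn4). The replicate 2 arrays were again higher in both groups, and testosterone replicate 2 was the highest. Its difference of 0.21 had an interval from -0.96 to 1.38. Fstl1, a secreted glycoprotein with a follistatin-like domain, varied less: 0.36 and 0.67 with testosterone, 0.48 and 0.69 in control (chromosome 11, 64689386 to 64689445, rn4). Its difference was -0.08 (-0.66 to 0.51), and testosterone replicate 1 was the lowest array.

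**Figure D2:**
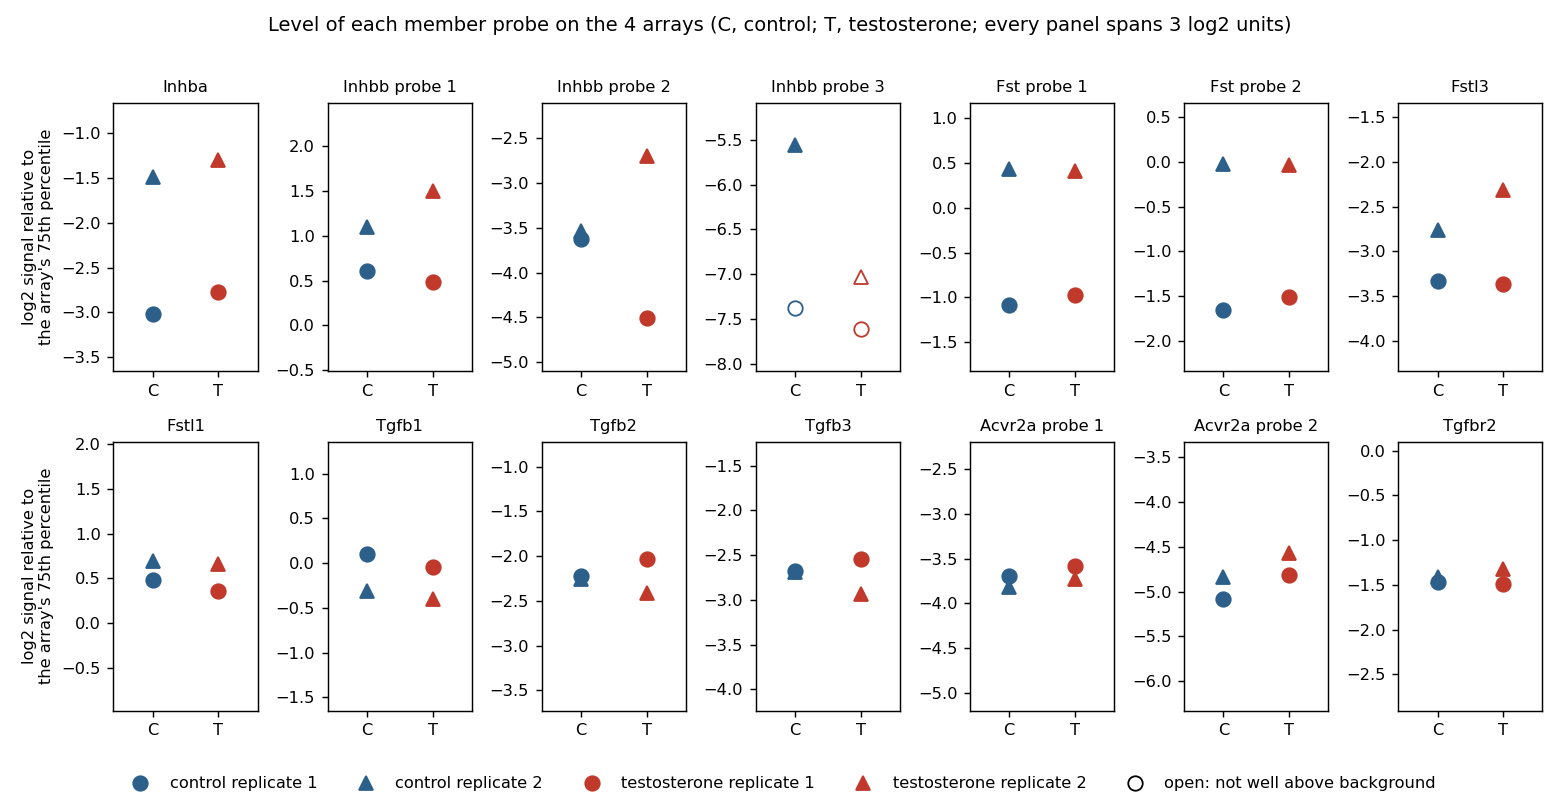
Level of the 14 member probes on each array, as the log2 signal relative to the array's 75th percentile; circles are replicate 1, triangles replicate 2, blue control and red testosterone, open symbols are not well above background, and every panel spans 3 log2 units. Triangles lie above circles in both groups for Inhba, Fst and Fstl3 and below them for Tgfb1, while red and blue of one shape lie close together for Inhba and Fst.

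Tgfb1, the most widely expressed TGF-beta ligand, was printed as 10 spots on each array, so the spread between spots of 1 array could be read (chromosome 1, 80910123 to 80910182, rn4). After outlier-flagged spots were left out, the spots averaged -0.04 ± 0.07 (SD, 9 spots) on testosterone replicate 1 and -0.40 ± 0.09 (10 spots) on testosterone replicate 2. In control they averaged 0.10 ± 0.08 (9 spots) and -0.31 ± 0.06 (7 spots). The replicate 2 array was the lower one in both groups, by 0.35 and 0.41, and the groups overlapped. The spread between spots leaves out error of labelling and hybridisation. Spots are not replicates of a condition, and over the arrays the difference was -0.12 (-0.80 to 0.56; adjusted p = 1.00 in limma). On control replicate 1 the spot at row 504, column 83, read -6.69 where the other spots lay between -0.06 and 0.21, and it carried the scanner software's outlier flag. With flagged spots kept, the difference was 0.23 in place of -0.12.

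**Figure D3:**
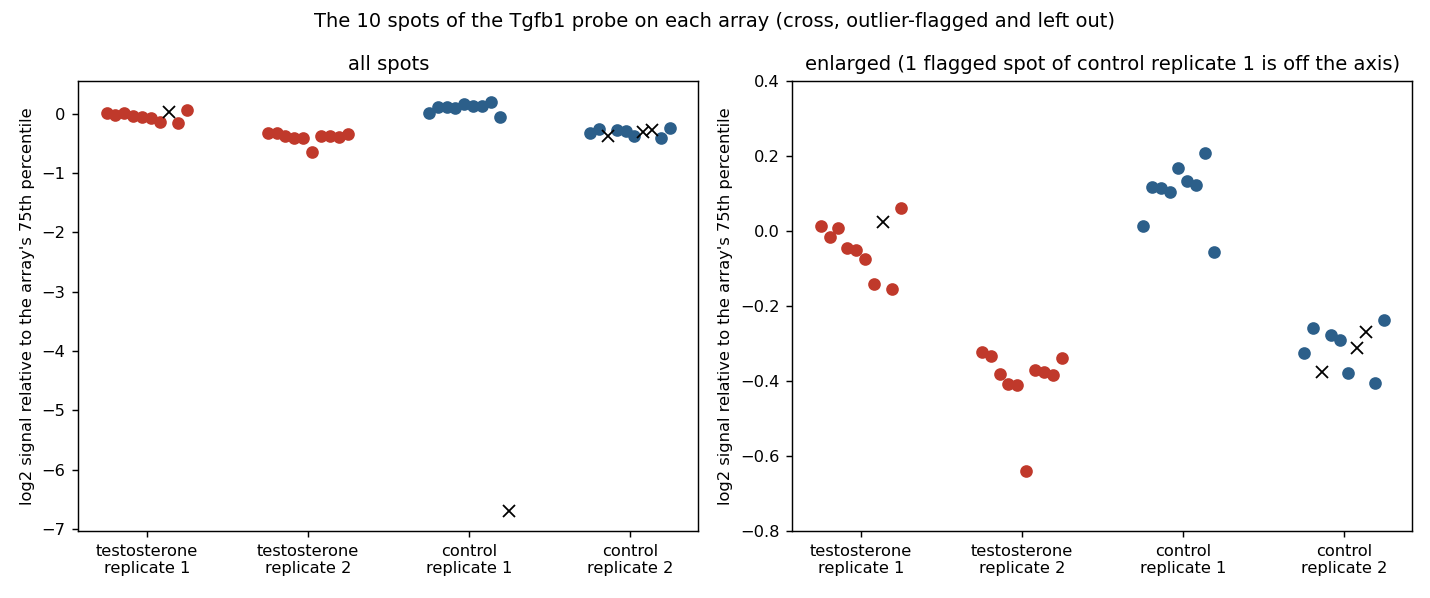
The 10 spots of the Tgfb1 probe on each array, as log2 signal relative to the array's 75th percentile, all spots on the left and an enlarged axis on the right; crosses are outlier-flagged spots. On control replicate 1 a single flagged spot reads -6.69, and the unflagged spots of replicate 2 average -0.40 and -0.31 against -0.04 and 0.10 for replicate 1.

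Tgfb2 and Tgfb3, the other two ligand genes, varied little in control and more with testosterone. Tgfb2 read -2.03 and -2.42 with testosterone and -2.23 and -2.25 in control (chromosome 13, 102719362 to 102719421, rn4). Its group means of -2.23 ± 0.27 and -2.24 ± 0.02 (SD, n = 2) differed by 0.02 (-0.57 to 0.61). Tgfb3 read -2.54 and -2.93 with testosterone and -2.68 and -2.69 in control (chromosome 6, 110173856 to 110173915, rn4). In both genes the control arrays lay between the testosterone arrays, of which replicate 1 was the higher. The difference of Tgfb3 was -0.05 (-0.65 to 0.54), and whether the spread itself differed between groups was not tested.

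The receptor genes gave the narrowest intervals. Tgfbr2, the type II receptor for TGF-beta, read -1.49 and -1.32 with testosterone and -1.47 and -1.42 in control (chromosome 8, 120608696 to 120608755, rn4). The groups overlapped, and the difference of 0.04 (-0.47 to 0.55) allows, in linear terms, 0.722-fold to 1.46-fold. Acvr2a, a type II receptor for activins, was measured by 2 probes on chromosome 3. Probe 1 (29808067 to 29808126, rn4) read -3.58 and -3.73 with testosterone and -3.69 and -3.81 in control, a difference of 0.10 (-0.41 to 0.61). Probe 2 (29779945 to 29780004) read -4.81 and -4.57 with testosterone and -5.09 and -4.84 in control. It was the only tested member probe whose groups did not overlap, testosterone being higher by 0.27 (-0.30 to 0.84; adjusted p = 1.00 in limma). That is 1 of 13 member probes, where 6.13% of all tested probes lay apart in that direction and 8.94%, with 0 member probes, in the other. At least 2-fold apart were 0 member probes, against 0.549% of all tested probes higher and 0.147% lower. All 13 member probes were well above background on all 4 arrays, and of the 24489 probes so detected 39 were that far apart in either direction. The margin of Acvr2a probe 2 was small, since testosterone replicate 1 lay just above control replicate 2.

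Inhba and Fst differed by replicate number far more than by testosterone, and in the same way in both groups. Both replicate 2 arrays lay above both replicate 1 arrays for 8 of the 13 member probes, against 36.8% of all tested probes, and below them for 4, against 26.8%. The gap was at least 2-fold in 3 probes, the Inhba probe and both Fst probes, where 1.62% of all tested probes had such a gap upward; 0 member probes and 0.332% of all had it downward. Inhba was 2.77-fold higher on replicate 2 than on replicate 1 with testosterone and 2.88-fold higher in control. Fst probe 1 was 2.62-fold and 2.86-fold higher, in the same order. Fstl3 was 2.08-fold and 1.49-fold higher, and Inhbb probe 1 was 2.02-fold and 1.40-fold. Tgfb1 ran the other way, at 0.784-fold and 0.751-fold. The labels do not say what the replicate numbers mark, and these values describe 4 arrays, with no test.

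The order depended in part on the scaling. With each array centred on its median, replicate 2 was above for 5 and below for 5 of the 13 member probes, where 19.8% of all tested probes were above and 44% below, and the median of replicate 2 minus replicate 1 over all tested probes was -0.14 in place of 0.06. Under all 4 scalings compared, both replicate 2 arrays were higher for Inhba, both Fst probes, Fstl3 and Inhbb probe 1, and both were lower for Tgfb1, Tgfb2 and Acvr2a probe 1. Tgfb3 was lower on both under 3 of the 4 scalings, the deposited table being the exception. The order of Fstl1, Tgfbr2, Inhbb probe 2 and Acvr2a probe 2 changed with the scaling. Background correction by normexp with quantile normalization reduced the Inhba gap to 0.84 and 0.83 on the log2 scale, from 1.47 and 1.53.

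**Figure D4:**
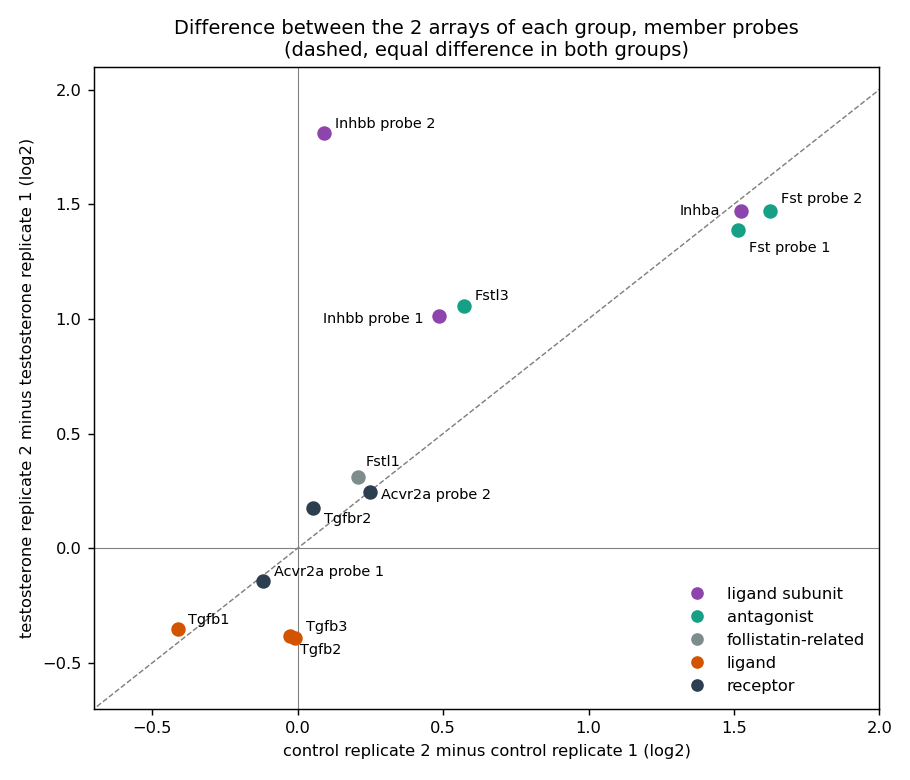
For each tested member probe, replicate 2 minus replicate 1 in control (horizontal) against the same in testosterone (vertical), on the log2 scale, coloured by role; the dashed line marks equal differences. Inhba and both Fst probes lie near the line at 1.39 to 1.63 in both groups, Tgfb1 lies below 0 in both, and Inhbb probe 2 lies far from the line, at 0.09 and 1.81.

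Summed signals of cell type markers, in multiples of the array's 75th percentile, also differed by replicate number. The sum of smooth muscle and myoid markers, set mostly by Myl9, also differed by group. The sums are given with replicate 1 before replicate 2, testosterone first. Germ cell markers (5 of 6 with a probe) summed to 0.430 and 4.41, then 0.385 and 4.46 in control. Mesothelial markers (3 of 5) summed to 0.0954 and 0.820, then 0.119 and 0.739. A few genes carried these sums. Prm1 and Tnp1, which encode spermatid chromatin proteins, were named after their values were seen. On the log2 scale they were higher on replicate 2 by 3.08 and 5.01 with testosterone and by 2.65 and 4.39 in control. Tnp1 read -3.42 and 1.59 with testosterone and -2.80 and 1.59 in control. Its level on control replicate 1 thus itself met the rule for a dark spot. Within 4 rows and columns, its own place included, 1 dark spot was counted. Msln, the mesothelial surface protein mesothelin, was higher on replicate 2 by 4.29 with testosterone and 3.93 in control. Ddx4, a germ cell helicase, went from -2.56 to -3.83 with testosterone and from -7.59 to -3.96 in control, and was well above background on 3 arrays. Control replicate 1 alone was low, and the Ddx4 probe lay in column 78, among the columns where that array held its dark spots. It had 0 dark spots within 4 rows and columns, but a fall of less than 16-fold would not have been counted. Fibroblast markers (5 of 5) summed to 367 and 462, then 346 and 431, with Dcn saturated on 4 arrays and Col1a1 on 1, so that this sum is not measured exactly, and macrophage markers (6 of 7) to 132 and 99.1, then 152 and 103. Smooth muscle and myoid markers (7 of 9) summed to 57.8 and 67.2, then 68.8 and 76.9, so that both testosterone sums lay below both control sums. Most of each sum came from Myl9, at 5.68 and 5.86 with testosterone and 5.98 and 6.11 in control on the log2 scale. Of the 6 tested markers of this list, 3 had a positive and 3 a negative testosterone difference, with a median of -0.01. Leydig cell markers (6 of 6) summed to 94.0 and 121, then 101 and 105. Bright members set these sums, and others of the lists differed more by replicate number. Tagln, Lum and Cyp11a1 were also named after their values were seen. Tagln was higher on replicate 2 by 1.79 with testosterone and 1.72 in control, Lum was higher by 1.93 and 1.53, and the level of Cyp11a1 differed by -0.96 and -0.89. Both replicate 2 arrays were higher for 3 and lower for 2 of 6 tested smooth muscle and myoid markers, and for 3 and 0 of 4 tested fibroblast markers. For Leydig cell markers that was 1 and 4 of 5, though the sums rose, and for Sertoli cell markers 2 and 1 of 4. Over all tested probes the shares were 36.8% and 26.8%. Sertoli cell markers (7 of 8, Inha among them) summed to 6.18 and 9.70, then 7.15 and 9.21, and endothelial markers (6 of 6) to 0.693 and 1.12, then 0.826 and 1.63. Acrv1, Wt1, Thy1, Cnn1, Lhcgr and Tek read well above background on 0 arrays. The part of the shifts by replicate number or by group in the values of Inhba and Fst was not tested.

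Other genes of the pathway were read from lists by role, and none passed the test. Of 61 genes 55 had a probe and 38 were tested; 20 had a positive and 18 a negative difference, with a median of 0.05 beside -0.01 over all tested probes. Of the 38, 0 passed an adjusted p of 0.05 in limma and 0 had an unadjusted p under 0.05. Groups did not overlap for 3 of the 38 with testosterone higher and 1 with testosterone lower, where 6.13% and 8.94% of all tested probes did so.

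Among other ligands 3 of 9 with a probe were tested, all with a negative difference. Inha, the alpha subunit that pairs with a beta subunit to form inhibins, read -1.37 and -1.24 with testosterone and -1.24 and -1.19 in control. Its difference was -0.09 (-0.59 to 0.41). Gdf15, a divergent TGF-beta family member, differed by -0.21 (-0.86 to 0.44). The probes named Inhbc and Inhbe, further beta subunits, were well above background on 0 arrays.

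Receptors and co-receptors had 5 positive and 3 negative differences among 8 tested. Acvr2b, the other type II activin receptor, read -2.64 and -2.45 with testosterone and -4.17 and -2.39 in control, a difference of 0.73 (-0.94 to 2.40). Control replicate 1 alone was low; the Acvr2b probe lay in column 71 of the array, with 0 dark spots within 4 rows and columns. Tgfbr3, the co-receptor betaglycan, differed by 0.26 (-0.589 to 1.099), Tgfbr1, the type I receptor for TGF-beta, by -0.14 (-0.68 to 0.39), and Bambi, a decoy receptor, by -0.09 (-0.65 to 0.48).

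Proteins that hold or release latent TGF-beta had 3 positive and 3 negative differences. Fbn1, the microfibril protein fibrillin, differed by 0.27 (-1.07 to 1.61), and Itgav, an integrin subunit that takes part in releasing TGF-beta, by 0.09 (-0.59 to 0.78). Ltbp1 and Ltbp4, latent TGF-beta binding proteins, differed by -0.17 (-0.74 to 0.40) and -0.13 (-0.64 to 0.38).

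Transducers and inhibitors had 6 positive and 4 negative differences. Smad4, the common partner of the receptor Smads, was higher on both testosterone arrays, at -0.25 and -0.40 against -0.43 and -0.73, a difference of 0.26 (-0.31 to 0.82). Smad7, an inhibitory Smad, differed by -0.23 (-0.85 to 0.39), and Zfyve9, an anchor for receptor Smads, by -0.20 (-0.81 to 0.42). No array read the Smad3 probe well above background. Of 2 tested follistatin-related genes, Sparc, a matrix glycoprotein with a follistatin-like domain whose probe was saturated on 1 array, differed by 0.17 (-0.67 to 1.01) and Igsf1 by -0.01 (-1.20 to 1.17).

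Of 12 tested target genes of TGF-beta signalling, 7 had a positive and 5 a negative difference with testosterone. Ctgf, a matricellular protein and common TGF-beta target, read -2.67 and -0.68 with testosterone and -3.13 and -1.04 in control, a difference of 0.41 (-2.20 to 3.02). Tgfbi, a matrix protein induced by TGF-beta, read 5.47 and 4.22 with testosterone and 5.68 and 4.66 in control, a difference of -0.32 (-1.83 to 1.19). Skil, a Smad corepressor, differed by 0.16 (-0.61 to 0.92). Both replicate 2 arrays were higher for 8 and lower for 3 of these 12 genes, against 36.8% and 26.8% of all tested probes, so that Ctgf ran with Inhba and Fst by replicate number and Tgfbi against them.

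**Figure D5:**
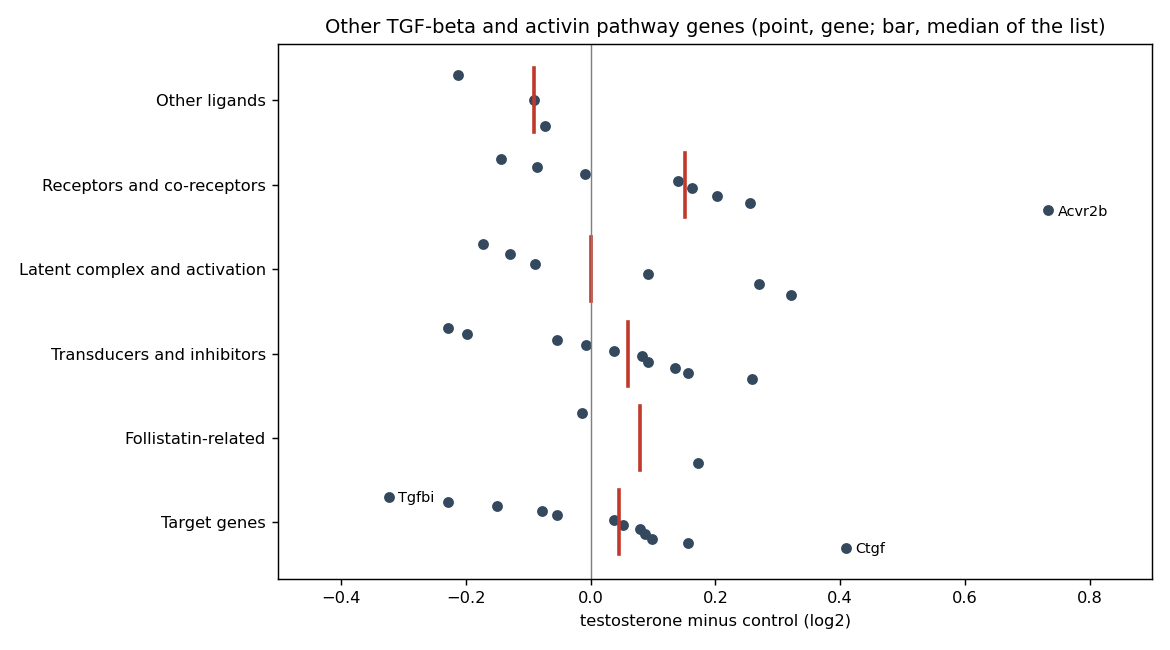
Testosterone minus control on the log2 scale for the tested genes of each role list (points) with the list's median (red bar); rule-named genes beyond 0.3 either way are labelled. Points lie on both sides of 0 in all lists but the other ligands, and Acvr2b at 0.73 and Ctgf at 0.41 are the highest.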

How the data were processed

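Each of the 4 RNA samples was turned into Cy3-labelled cRNA by T7 amplification and read on its own one-colour rat array, per the labels' protocols. The software version is 11.5.1.1 per the file headers and 10.5 in the submitters' processing notes (Agilent Feature Extraction). Signals in the deposited scanner files are a linear-scale intensity per spot, already background-subtracted, with flags. The authors' deposited series table is on the log2 scale, and over 40749 probes printed once it equals the log2 processed signal less a constant for each array (8.38 to 8.79).

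Scaling used the 75th percentile of an array's non-control spots. Outlier-flagged spots were left out, spots of one probe averaged, and probes kept when measured on all 4 arrays and well above background on both arrays of a group (25881 probes). The test of testosterone against control was limma's (version 3.58.1, R 4.3.3, lmFit, eBayes, 2-sided, Benjamini-Hochberg). Its code was also run on simulated data with less noise than these arrays and no shared effect of replicate number. That run checks the code and cannot show how the test performs on these data. Probes, not genes, were the unit, and the brightest probe stood for a gene in counts. List genes were matched by name, by older symbol or by accession on the same chromosome through the RefSeq table of GRCr8. The text names every member probe and, of each role list, the 2 largest differences per direction among genes detected on all 4 arrays; Inhbc, Inhbe and Smad3 were named after their values were seen. Probe positions are on rn4. Members and lists were chosen with earlier results of these data known. Alternatives covered background correction, scaling, detection filter, replicate block, gene unit, array area, flagged spots (added after seeing the data) and each array left out.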

Additional observations from a re-analysis of the deposited data

How the results depend on the processing

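With all 4 arrays kept, limma called 0 probes under every alternative, with 36 to 740 unadjusted p-values under 0.05. Leaving out 1 array gave 0 to 67 calls, all 67 without control replicate 2 and none a member; the lone array was then assumed to vary like the pair. The main count of 180 probes at least 2-fold apart with groups not overlapping was 24 with normexp and quantile normalization, 896 with no detection filter, 39 when detection was required on all 4 arrays, 44 without columns 57 to 85, and 245 to 845 with 1 array left out; 78.9% of the 180 and 100% of the 24 were higher. Member genes with a positive difference numbered 4 with normexp, 4 with median centring, 4 of 7 measured without columns 57 to 85, and 4 to 8 with 1 array left out, against 7. Other pathway genes with a positive difference numbered 12 of 23 without columns 57 to 85, where fewer genes were measured, and 12 to 23 with 1 array left out, against 20 of 38. No member passed the threshold under any alternative, and 9 of 109 member values with all 4 arrays changed sign. Many of the 109 could not: the detection filter, replicate block and gene unit alternatives leave a probe's difference of means as it was. Keeping flagged spots changed the difference of Tgfb1 alone. The count of 9 is therefore no measure of stability.

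With normexp the difference was 0.11 for Inhbb probe 2 and -0.00052 for Fst probe 2. With normexp and with median centring Tgfb2 gave -0.037 and -0.050, and Tgfbr2 -0.016 and -0.028. Acvr2a probe 1 gave -0.022 with normexp, Fst probe 1 gave -0.027 with median centring, and Tgfb1 gave 0.23 with flagged spots kept. With 1 array left out the difference ran from -0.54 to 0.98 for Inhba, -0.37 to 0.64 and -0.93 to 0.88 for Inhbb probes 1 and 2, -0.72 to 0.80 and -0.74 to 0.88 for the Fst probes, and -0.32 to 0.74 for Fstl3. It ran from -0.23 to 0.079 for Fstl1, -0.32 to 0.089 for Tgfb1, -0.18 to 0.21 for Tgfb2, -0.25 to 0.15 for Tgfb3 and -0.049 to 0.13 for Tgfbr2. Acvr2a probes 1 and 2 kept a positive sign there, at 0.03 to 0.17 and 0.14 to 0.39. These fits leave the replicate numbers unbalanced. For the remaining shifts the cause was not tested. Columns 57 to 85 hold both Fst probes, Inhbb probes 1 and 2 and Tgfb2, which have no value without them.

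With the replicate block 0 probes were called, 740 had an unadjusted p under 0.05 against 208 without it, and no member call changed. Its 95% intervals were narrower, from -0.18 to 0.62 in place of -1.73 to 2.17 for Inhba, and from -0.37 to 0.45 in place of -1.85 to 1.93 for Fst probe 1. Same-numbered arrays deviated together from their group means (correlation 0.589 over 24489 probes), but what the numbers mark is not stated, and no pairing was assumed.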

Other observations

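A probe for a TGF-beta-2 partial coding sequence, which the scanner files do not name Tgfb2, was well above background on control replicate 1 alone. It read -7.45 and -6.19 with testosterone and -5.29 and -6.35 in control, and was not tested. Lox, the collagen cross-linking enzyme and a target gene of TGF-beta in the list, was named after its values were seen: it read -0.76 and 1.20 with testosterone and -0.82 and 1.09 in control, so that its replicate 2 arrays were higher by 1.96 and 1.91, while its testosterone difference was 0.09 (-2.39 to 2.57).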
